A study of Mus musculus with 8 samples.

Results

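miR-151, miR-28a and miR-708 are 3 related mouse miRNA hairpins whose 5′ arms carry the same core of bases. The sequences described here are all distinct listed sequences annotated to a mature arm of one of these hairpins, 16 of the 11568 listed. Of these, 10 were annotated to mmu-miR-151-5p (mmu stands for mouse and is left out from here on), 1 to mmu-miR-151-3p, 2 to miR-28a-5p, 2 to miR-28a-3p and 1 to miR-708-5p. None was annotated to miR-708-3p, miR-28b or miR-28c. Beside them stand 10 sequences annotated to one of these hairpins but to no mature arm, 24 that carry 1 to 3 bases added to the 3′ end of a family sequence, and 32 that differ from one by 1 substitution.

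The RNA came from MIN6B1 cells, a mouse insulinoma line that serves as a model of pancreatic beta cells. Cells received either a control plasmid or a plasmid for HENMT1ΔC-T6B, a methyltransferase, in both cases with Lipofectamine 2000, and the total RNA of each was either left as it was or oxidized with sodium periodate (NaIO4) before library preparation with the QIAseq kit for miRNAs. This gave 4 groups of 2 libraries: non-oxidized control, oxidized control, non-oxidized methyltransferase and oxidized methyltransferase RNA. HENMT1 adds a methyl group to the 3′ end of small RNAs, and T6B is an Argonaute-binding peptide. Periodate destroys the free 3′ end that adapter ligation needs and spares a methylated one. The labels give a range of times after transfection and no time per library. They do not say that the 2 libraries of a group came from separate cultures, so p-values measure only the spread between these libraries, which may be technical. All cells of a culture were pooled, so fewer cells with an RNA and less of it per cell cannot be told apart.

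A miRNA hairpin is cut by Drosha and then Dicer into a duplex, and an Argonaute protein keeps 1 strand of it, from the 5′ or the 3′ arm. Bases 2 to 8 of the strand, the seed, pair with target messages. The 3′ end varies through uneven cutting, trimming and added bases, so that 1 arm appears as a ladder of lengths with the same seed. In the GENCODE M21 annotation of GRCm38, all 3 hairpins lie in introns of protein-coding genes. Mir151 (chr15:73254815-73254882, minus strand) lies in an intron of Ptk2, the gene of focal adhesion kinase, and also in an intron of an antisense gene, 1700085D07Rik. Mir28a (chr16:24827855-24827940, plus strand) lies in an intron of Lpp, which encodes a LIM protein of cell adhesions. Mir708 (chr7:96249424-96249532, plus strand) lies in an intron of Tenm4, which encodes a teneurin.

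The miR-151-5p ladder is shown first because the largest differences below lie between its steps. Sequences are 5′ to 3′ as the deposited table spells them, with the seed in capitals. All 5 start at the same base, and the 21-nucleotide form covers chr15:73254855-73254875 on the minus strand.
miR-151-5p, 19 nucleotides: tCGAGGAGctcacagtcta
miR-151-5p, 20 nucleotides: tCGAGGAGctcacagtctag
miR-151-5p, 21 nucleotides: tCGAGGAGctcacagtctagt
miR-151-5p, 22 nucleotides: tCGAGGAGctcacagtctagta
miR-151-5p, 23 nucleotides: tCGAGGAGctcacagtctagtat
The 22- and 23-nucleotide forms match the hairpin to their last base but were annotated to the hairpin only, so they are not among the 16.

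The other arms are shown because they differ in how they fared under oxidation. The miR-28a-5p sequence of 22 nucleotides covers chr16:24827868-24827889, the miR-28a-3p sequence of 22 nucleotides chr16:24827908-24827929, the miR-708-5p sequence chr7:96249450-96249472 and the miR-151-3p sequence chr15:73254820-73254840, the last on the minus strand.
miR-28a-5p, 21 nucleotides: aAGGAGCTcacagtctattga
miR-28a-5p, 22 nucleotides: aAGGAGCTcacagtctattgag
miR-708-5p, 23 nucleotides: aAGGAGCTtacaatctagctggg
miR-28a-3p, 21 nucleotides: cACTAGATtgtgagctgctgg
miR-28a-3p, 22 nucleotides: cACTAGATtgtgagctgctgga
miR-151-3p, 21 nucleotides: cTAGACTGaggctccttgagg
miR-28a-5p and miR-708-5p have the same seed, AGGAGCT, and no other mature arm of the table has it. miR-151-5p and miR-28a-5p share a run of 16 bases, AGGAGCTCACAGTCTA, which starts at base 4 of miR-151-5p and at base 2 of miR-28a-5p, so the shared bases are out of register by 2 and the seeds differ. The RefSeq table (GRCm38.p6) matched 4 of the 6 named arms, and its entries for miR-28a-5p, miR-28a-3p and miR-708-5p are identical to the listed forms of 22, 22 and 23 nucleotides.

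Listed counts summed to between 295094 and 6641250 per library, with the lowest totals in oxidized control RNA. The table lists a sequence only where both oxidized methyltransferase libraries had 2 or more counts and together 10 or more, and it sets no such limit for other groups, so a sequence lost from those libraries would not be listed. The 16 sequences took 0.220% and 0.231% of listed counts in the non-oxidized control libraries, 0.00662% and 0.00746% in the oxidized control libraries, 0.212% and 0.209% in the non-oxidized methyltransferase libraries and 0.284% and 0.220% in the oxidized methyltransferase libraries. The 95% Wilson intervals of the oxidized control shares were 0.00461% to 0.00950% and 0.00492% to 0.0113%, which cover counting error only. In the smallest library, no count at all would still allow a share of 0.00102% (3 counts). The beta cell markers miR-375-3p and miR-7a-5p had between 120963 and 567527 counts in each non-oxidized library.

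Oxidation removed nearly all of the family from control RNA, and far more of it was counted after oxidation with the methyltransferase plasmid. The 21-nucleotide miR-151-5p had 9355 and 12147 counts in the non-oxidized control libraries, 19 and 3 in the oxidized control libraries, 6014 and 7986 in the non-oxidized methyltransferase libraries and 8168 and 4960 in the oxidized methyltransferase libraries. The oxidized control libraries alone were low, and the 2 methyltransferase groups overlapped. With edgeR, oxidized methyltransferase RNA had 9.37 ± 0.67 (SE) more on the log2 scale than oxidized control RNA (Benjamini-Hochberg adjusted p = 1.20e-06). The 22-nucleotide form had 3225 and 4076, 3 and 6, 3584 and 5037, and 10226 and 7538 counts in the same order of groups. It was highest in both oxidized methyltransferase libraries, and its edgeR difference from oxidized control RNA was 10.95 ± 0.62 (log2, adjusted p = 6.32e-07).

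**Figure D1:**
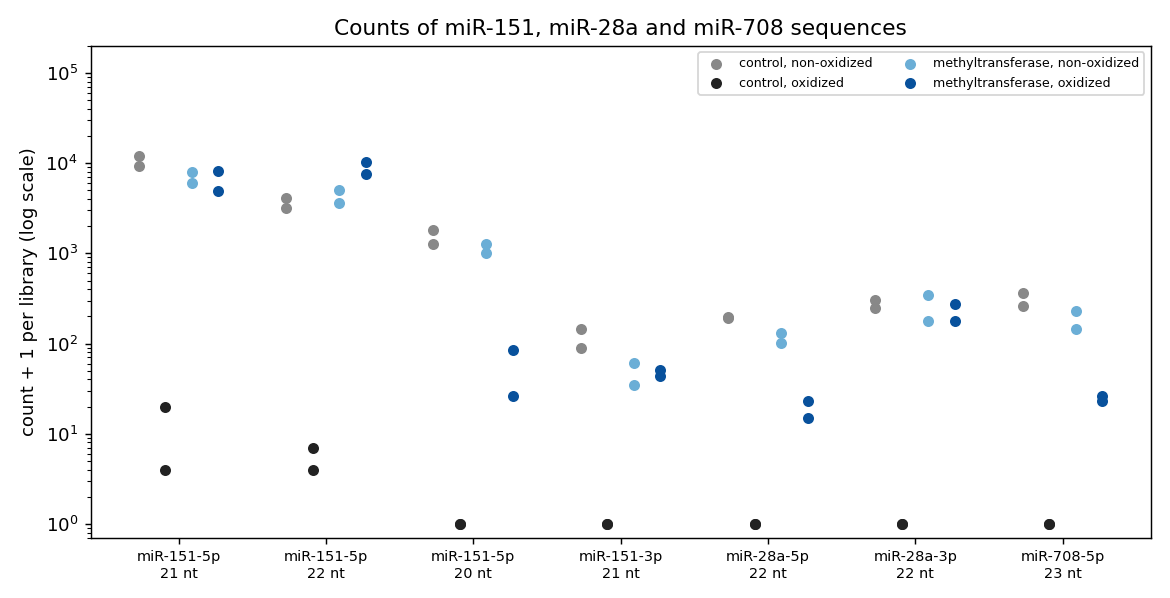
Counts plus 1 (log axis) of 6 of the 16 sequences and of the 22-nucleotide miR-151-5p form, 1 point per library, coloured by group. The oxidized control points (black) are lowest for each sequence, and both oxidized methyltransferase points (dark blue) of the 20-nucleotide miR-151-5p, miR-28a-5p and miR-708-5p lie well below the non-oxidized ones.

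The less abundant arms followed with smaller counts. The miR-28a-3p sequence of 22 nucleotides had 247 and 304 counts in the non-oxidized control libraries, none in oxidized control RNA, 178 and 345 in non-oxidized and 272 and 175 in oxidized methyltransferase RNA. The miR-151-3p sequence had 145 and 88, 0 and 0, 60 and 34, and 50 and 43 counts in these groups. For both, the oxidized and non-oxidized methyltransferase libraries overlapped, and the oxidized control libraries stood at 0. Against the floor of 3 counts per library, oxidized methyltransferase RNA held at least 76.4-fold more of this miR-28a-3p sequence than oxidized control RNA, and at least 16.1-fold more of miR-151-3p. These bounds use edgeR's trimmed-mean scaling. With total counts alone they were 9.36-fold and 1.98-fold.

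The 5′ arms of miR-28a and miR-708 lost much of their count on oxidation even with the methyltransferase plasmid. The miR-28a-5p sequence of 22 nucleotides had 198 and 189 counts in the non-oxidized control libraries, none in oxidized control RNA, 129 and 101 in non-oxidized and 14 and 22 in oxidized methyltransferase RNA. The miR-708-5p sequence had 260 and 364, 0 and 0, 144 and 226, and 22 and 25 counts. In both cases the oxidized methyltransferase libraries lay below all 4 non-oxidized libraries and above both oxidized control libraries. The bounds over oxidized control RNA were at least 6.46-fold for this miR-28a-5p sequence and at least 8.29-fold for miR-708-5p. With total counts they were 0.794-fold and 1.02-fold, so at this depth the total-count scale does not show a difference for the first.

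Of the 16 sequences, 14 passed edgeR's filter on low counts, and the 16-nucleotide miR-151-5p and the form whose first base was not called did not. Between oxidized methyltransferase and oxidized control RNA, 13 of the 14 were higher, and of all 9851 sequences tested 42.3% were called higher, 3.92% lower and 46.2% in either direction. Among mature miRNA sequences, 518 of 607 (85.3%) were higher. The median log2 difference was 7.34 over the 14, 6.49 over mature miRNA sequences and 0.82 over all sequences tested. The listing rule and the filter admit sequences by their counts in oxidized methyltransferase RNA, so this count is a description only. The exception was the 17-nucleotide miR-151-5p, with 6 and 12, 6 and 1, 7 and 8, and 7 and 4 counts (log2 difference 0.79 ± 0.90, adjusted p = 0.538). The 21-nucleotide miR-28a-3p had 49 and 83, 0 and 8, 47 and 63, and 38 and 14 counts. Its call (2.58 ± 0.97, adjusted p = 0.0471) was lost without the first oxidized control library (1.44, adjusted p = 0.152), and also without the second non-oxidized control library (adjusted p = 0.0524) or the first oxidized methyltransferase library (adjusted p = 0.227). With total counts its sign turned (-0.42).

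In control RNA, oxidation lowered 13 of the 14, with 46.4% of all sequences tested called lower and 64.8% in either direction. Among mature miRNA sequences, 563 of 607 (92.8%) were lower. The 21-nucleotide miR-151-5p fell by 10.38 on the log2 scale (edgeR adjusted p = 4.16e-07), and the 17-nucleotide form was the exception (adjusted p = 0.0952). Bounds for sequences at 0 in both oxidized control libraries were at least 647-fold lower for the 20-nucleotide miR-151-5p, at least 131-fold for miR-708-5p, at least 116-fold for the 22-nucleotide miR-28a-3p and at least 81.7-fold for the 22-nucleotide miR-28a-5p. With total counts these were 29.9-, 6.06-, 5.39- and 3.83-fold. Of the 16 sequences, 10 had no count in either oxidized control library. The effect of oxidation itself differed between the plasmids for 12 of the 14, all higher with the methyltransferase, with 39.6% of all sequences tested called in that direction. Mature miRNA sequences were called in that direction at 85.7%, the same share as the 14. The listing rule and the filter bear on this count too, so it is a description only. The interaction called 9 of the 14 with total counts, and 4 higher and 1 lower of 15 in a fit of miRNA sequences alone. Total counts moved the median of all sequences by -2.99 in the comparison of the oxidized groups and by 4.34 for oxidation in control RNA. With total counts, 11 of the 14 were higher and 1 lower in oxidized methyltransferase than in oxidized control RNA. For oxidation in control RNA, total counts gave 9 lower and 1 higher, and a fit of miRNA sequences alone gave 7 lower and 1 higher of 15. No share of all sequences stands beside the counts from these alternative fits, so they do not set the family apart. With total counts the median log2 difference between the oxidized groups was 7.54 over the 14 and -2.17 over all. For oxidation in control RNA these medians were -6.67 and 3.20.

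Without oxidation, no difference between the plasmids passed the threshold for any of the 14. edgeR called 0 of them and 0% of all sequences tested, with 2 of the 14 and 858 of 9851 at an unadjusted p under 0.05. For mature miRNA sequences this was 139 of 607. The median log2 difference was -0.70 over the 14, -0.63 over mature miRNA sequences and 0.047 over all sequences tested. With total counts the medians were -0.17 over the 14 and 0.57 over all. DESeq2 and limma-voom also called 0 of the members. The lowest of the unadjusted values belonged to the 21-nucleotide miR-28a-5p, which had 123 and 123 counts in the non-oxidized control libraries and 57 and 42 in non-oxidized methyltransferase RNA (log2 -1.32 ± 0.50, adjusted p = 0.495), and to miR-151-3p (-1.32 ± 0.53, adjusted p = 0.514).

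Oxidation of methyltransferase RNA changed 4 of the 14, all lower, with 11.2% of all sequences tested called lower. The 20-nucleotide miR-151-5p had 1271 and 1806 counts in the non-oxidized control libraries, none in oxidized control RNA, 996 and 1272 in non-oxidized methyltransferase RNA and 83 and 25 in oxidized methyltransferase RNA. Its oxidized libraries lay far below the non-oxidized ones, a fall by 4.71 ± 0.55 on the log2 scale (edgeR adjusted p = 0.000247). miR-708-5p fell by 3.20 ± 0.49 (adjusted p = 0.00137) and the 22-nucleotide miR-28a-5p fell by 2.90 ± 0.53 (adjusted p = 0.00402). The 19-nucleotide miR-151-5p had 127 and 166, 3 and 0, 62 and 68, and 24 and 10 counts, and it fell by 2.22 ± 0.60 (adjusted p = 0.0299). That last call did not hold without any 1 of the 6 libraries outside the oxidized control group (adjusted p between 0.0505 and 0.209), nor with total counts, upper-quartile scaling, a stricter filter, the compared libraries alone or miRNA sequences alone (0.0512 to 0.228). Among mature miRNA sequences as a whole, 251 of 607 were called lower in this comparison, and the median was -1.39 against -0.71 for the 14.

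**Figure D2:**
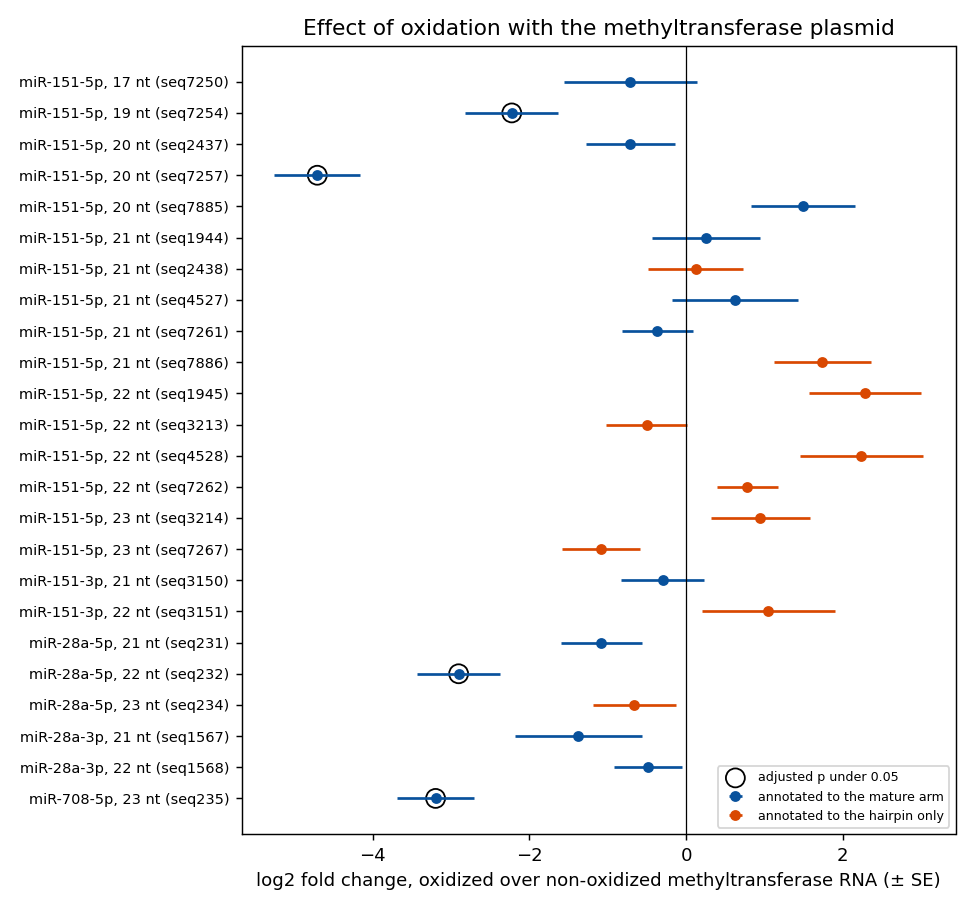
Log2 fold change ± SE (edgeR, 2 libraries per group) of oxidized over non-oxidized methyltransferase RNA, for the 14 sequences annotated to a mature arm (blue) and the 10 annotated to the hairpin only (orange), with the called ones ringed. The number after seq is the table's own sequence index. The 4 ringed sequences lie between -4.71 and -2.22, and the 22-nucleotide miR-151-5p lies to the right of the 21-nucleotide form.

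The remaining sequences of the 14 were not called in this comparison. The 21-nucleotide miR-151-5p differed by -0.37 ± 0.45 (edgeR adjusted p = 0.649), the 22-nucleotide miR-28a-3p by -0.48 ± 0.43 (adjusted p = 0.525) and miR-151-3p by -0.29 ± 0.53 (adjusted p = 0.771). The sign of these 3 depended on the scaling: with total counts they were 0.51, 0.42 and 0.54. Total counts moved the median of all sequences by 0.87 in this comparison, and with them 1 of the 14 was higher and 3 were lower. The 21-nucleotide miR-28a-5p had 57 and 42 counts in non-oxidized and 22 and 33 in oxidized methyltransferase RNA, a difference of -1.08 ± 0.52 that did not pass (adjusted p = 0.222). The 21-nucleotide miR-28a-3p differed by -1.38 ± 0.81 (adjusted p = 0.318).

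Summed by arm, the same comparison called miR-708-5p (-3.24 ± 0.50, edgeR adjusted p = 0.00143) and miR-28a-5p (-2.12 ± 0.49, adjusted p = 0.0175). miR-151-5p (-0.61 ± 0.36, adjusted p = 0.327), miR-28a-3p (-0.65 ± 0.67, adjusted p = 0.597) and miR-151-3p (-0.33 ± 0.53, adjusted p = 0.746) were not called. These sums leave out forms annotated to the hairpin only, such as the 22-nucleotide miR-151-5p. With such forms, the miR-151-5p sequences with the annotated first base had 11065 and 14953 counts in non-oxidized and 18919 and 12702 in oxidized methyltransferase RNA. The 2 called arms are those with the seed AGGAGCT. However, 251 of 607 mature miRNA sequences (41.4%) were also called lower when tested singly. The share of all arms called in the summed fit was not counted, so the calls do not set these 2 arms apart. The last bases of the called sequences were inspected after the values were seen. The called sequences of 20 (miR-151-5p), 22 (miR-28a-5p) and 23 (miR-708-5p) nucleotides end in G, while the called one of 19 nucleotides ends in A, and miR-151-3p and the 21-nucleotide miR-28a-3p end in G without a call. Among all miRNA sequences tested, the median log2 effect of oxidation with the methyltransferase was -2.33 for the 178 that end in G, -1.09 for 171 ending in A, -1.30 for 122 ending in C and -1.15 for 393 ending in T. Of those ending in G, 108 were called lower. Whether the last base has a part in the miR-28a-5p and miR-708-5p values was not tested.

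The ladder of miR-151-5p lengths moved between the groups. Within the sequences that start at the same base, the 20-nucleotide form took 9.05% ± 0.617 (SD, n = 2) of counts in non-oxidized control RNA, 8.75% ± 0.350 in non-oxidized methyltransferase RNA and 0.318% ± 0.171 in oxidized methyltransferase RNA. The 21-nucleotide form took 63.6% ± 0.287, 53.9% ± 0.668 and 41.1% ± 2.92. The 22-nucleotide form took 21.6% ± 0.315, 33.0% ± 0.916 and 56.7% ± 3.74. The 21-nucleotide form was thus the most abundant in all 4 non-oxidized libraries and the 22-nucleotide form in both oxidized methyltransferase libraries. The 23-nucleotide form took 4.75% ± 0.600, 3.74% ± 0.182 and 1.71% ± 0.599. The oxidized control libraries had only 34 and 20 counts on this ladder, and their shares are not read.

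**Figure D3:**
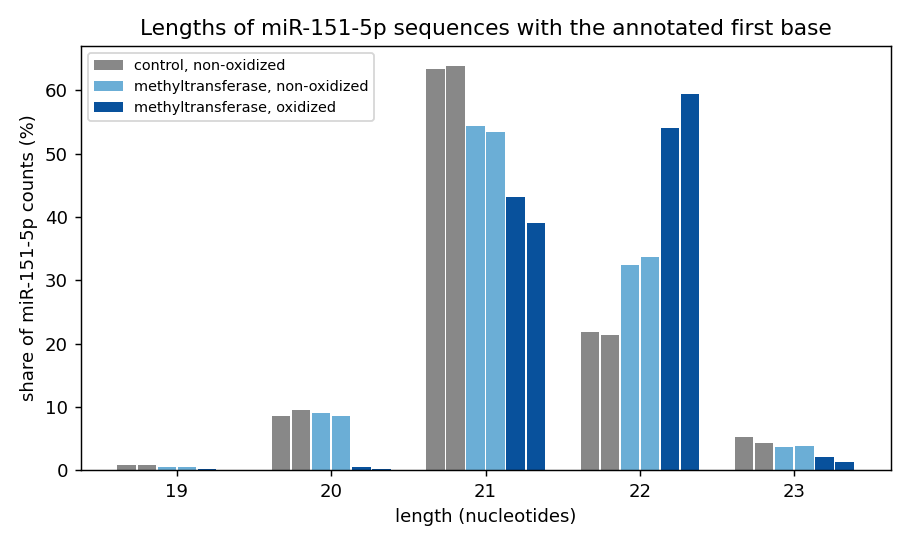
Share (%) of miR-151-5p counts at each length from 19 to 23 nucleotides, over sequences that begin at the annotated first base, 1 bar per library for 3 groups (oxidized control RNA, with 34 and 20 counts, is not drawn). The 20-nucleotide bars nearly vanish in oxidized methyltransferase RNA, and the 22-nucleotide bars reach 54.1% and 59.3% there.

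Ratios of neighbouring lengths within a library do not depend on library scaling, and they were compared with limma over all 393 miRNA sequence pairs that differ by 1 nucleotide at the 3′ end. The comparison was chosen after the data were seen. The ratio of 21- to 20-nucleotide miR-151-5p was 7.36 and 6.73 in non-oxidized control RNA, 6.04 and 6.28 in non-oxidized methyltransferase RNA and 98.4 and 198 in oxidized methyltransferase RNA. Both oxidized libraries lay above every non-oxidized one, with a rise on oxidation of 4.49 ± 0.30 (log2, limma adjusted p = 3.52e-05), the 7th highest of the 393. The ratio of 22 to 21 nucleotides was 0.345 and 0.336, 0.596 and 0.631, and 1.25 and 1.52 in the same groups, and it rose by 1.17 ± 0.14 on oxidation (adjusted p = 0.000562). That rise was only the 86th highest of the 393, whose upper quartile was 0.93. The groups did not overlap at that step.

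The other 2 steps of the ladder fell. The ratio of 20 to 19 nucleotides was 16.1 and 18.7 in non-oxidized and 3.46 and 2.50 in oxidized methyltransferase RNA, a log2 difference of -2.58 ± 0.25 (limma adjusted p = 0.000194). The ratio of 23 to 22 nucleotides was 0.112 and 0.115 against 0.0394 and 0.0216 (-1.95 ± 0.28, adjusted p = 0.00111). On the ladder, oxidation thus left relatively less of the 20-nucleotide form than of the lengths on either side of it and relatively more of the 22-nucleotide form than of its neighbours.

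The miR-28a-5p ladder also changed step by step. The ratio of 22 to 21 nucleotides was 1.61 and 1.54 in non-oxidized control RNA, 2.26 and 2.40 in non-oxidized methyltransferase RNA and 0.636 and 0.667 in oxidized methyltransferase RNA, and it fell by 1.82 ± 0.28 on oxidation (limma adjusted p = 0.00155). The 23-nucleotide miR-28a-5p, annotated to the hairpin only, had 58 and 55, 0 and 0, 17 and 24, and 18 and 13 counts. Its ratio to the 22-nucleotide form was 0.132 and 0.238 in non-oxidized and 1.29 and 0.591 in oxidized methyltransferase RNA (2.28 ± 0.48, adjusted p = 0.00692, and 1.86, adjusted p = 0.0519 without the first non-oxidized methyltransferase library). The 22-nucleotide form, which ends in G, was therefore low relative to both neighbours. The miR-28a-3p ratio of 22 to 21 nucleotides was 3.79 and 5.48 against 7.16 and 12.5, and missed the threshold (1.03 ± 0.37, adjusted p = 0.0508), which it passed with a pseudocount of 2 (0.0465) or without the first oxidized methyltransferase library (0.00552).

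Over all 9 family pairs in the fit, 3 ratios rose and 3 fell on oxidation of methyltransferase RNA, while 53.4% of all pairs were called in either direction. Changed length ratios were thus common in the table at large. Between the non-oxidized groups, 1 family pair was called, against 2.04% of all pairs. It was the ratio of 22- to 21-nucleotide miR-151-5p, higher with the methyltransferase by 0.85 ± 0.14 (limma adjusted p = 0.0403). This call was lost when any 1 library of the 2 non-oxidized groups was left out (adjusted p between 0.235 and 0.395).

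**Figure D4:**
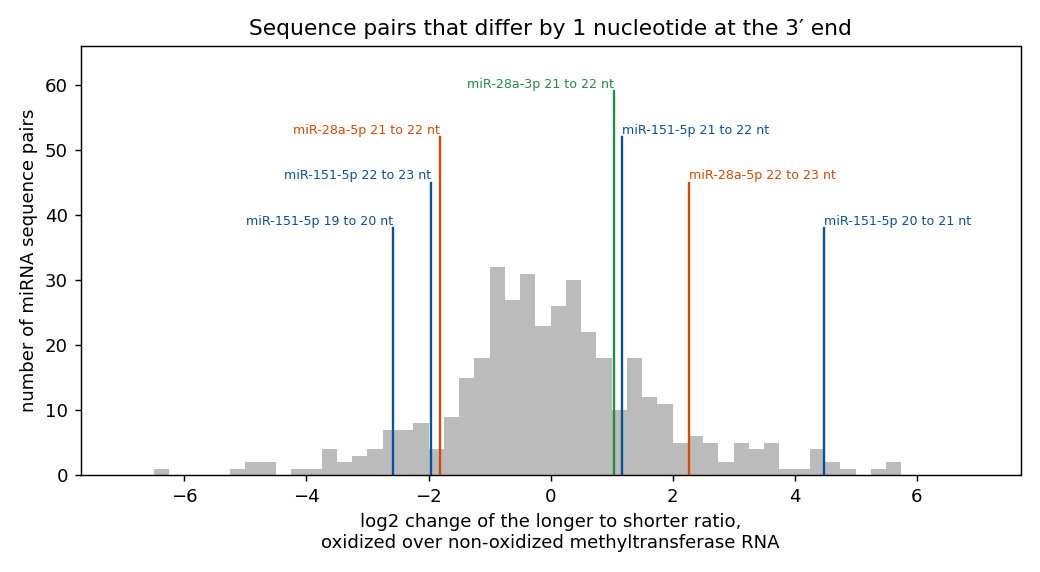
Histogram of the log2 change on oxidation of methyltransferase RNA in the longer to shorter ratio, for 393 miRNA sequence pairs that differ by 1 nucleotide at the 3′ end (grey, bars count pairs), with 7 family pairs as lines whose heights carry no value. The miR-151-5p step from 20 to 21 nucleotides lies at 4.49, near the upper end, and the steps from 19 to 20 and from 22 to 23 lie below 0.

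Sequences with another 5′ end were few. The miR-151-5p form without its first base had 39 and 32, 0 and 0, 15 and 24, and 14 and 14 counts. A form with 1 base more at the 5′ end, 22 nucleotides long and annotated to the hairpin only, had 35 and 48, 0 and 0, 28 and 28, and 24 and 23 counts. Dropping or adding a first base shifts the seed by 1, as these lines show.
miR-151-5p, first base absent: cGAGGAGCtcacagtctagt
miR-151-5p, 1 base longer at the 5′ end: cTCGAGGAgctcacagtctagt
Neither changed on oxidation of methyltransferase RNA at the threshold (edgeR log2 -0.71 ± 0.57, adjusted p = 0.474, and -0.50 ± 0.52, adjusted p = 0.584), and both signs turned with total counts (0.18 and 0.36).

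Further low-count forms of 21-nucleotide miR-151-5p differed at the first base, counted from the 5′ end. T1C and T1G below have no genomic match in the deposited table. They cannot be told apart from misreads of the far more abundant 21-nucleotide form. T1C had 15 and 11, 0 and 0, 19 and 8, and 26 and 14 counts, and T1G had between 5 and 8 counts in the non-oxidized libraries and 17 and 8 in oxidized methyltransferase RNA. T1N, with an uncalled first base, had 10 and 7 counts in oxidized methyltransferase RNA and at most 2 in any other library. A 20-nucleotide form with no genomic match there is 1 substitution from the form without its first base. It is also the 21-nucleotide form with base 2 absent, so it too cannot be told apart from a misread of that abundant form. It had 14 and 14, 0 and 0, 5 and 11, and 36 and 19 counts, the last pair above the 14 and 14 of the form without its first base. It was not called higher on oxidation of methyltransferase RNA with edgeR (1.50 ± 0.66, adjusted p = 0.186), but was with total counts (2.39, adjusted p = 0.0394). The 16-nucleotide miR-151-5p had 5 and 3, 0 and 10, 2 and 3, and 8 and 2 counts. Its highest count, 10, was in the second oxidized control library, where the 16 sequences had 22 counts in all. The 16- and 17-nucleotide forms match 3 places in the genome by the deposited table.

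Added 3′ bases on the miR-151-5p ladder were counted beside the hairpin-encoded ones. A 22nd base other than the encoded A makes a sequence that is also 1 substitution from the 22-nucleotide form, so such a count cannot be told apart from a misread of it. The form with T had 133 and 175, 0 and 0, 145 and 204, and 621 and 475 counts. The form with C had 66 and 73, 0 and 1, 114 and 124, and 548 and 433 counts, and that with G 44 and 80, 0 and 0, 97 and 111, and 365 and 270. As a percentage of the 21-nucleotide form in the same library, T was 2.41% and 2.55% in non-oxidized and 7.60% and 9.58% in oxidized methyltransferase RNA, C was 1.90% and 1.55% against 6.71% and 8.73%, and G was 1.61% and 1.39% against 4.47% and 5.44%. The encoded A went from 59.6% and 63.1% to 125% and 152%, so all 4 were higher in both oxidized libraries.

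Of the 22 tested sequences with added bases, 3 were called higher on oxidation of methyltransferase RNA, with 1.77% of all sequences tested called higher. Those with C (1.78 ± 0.45, edgeR adjusted p = 0.0224) and T (1.39 ± 0.40, adjusted p = 0.0470) were among them, and that with G was not (1.34 ± 0.45, adjusted p = 0.0812). The other one called, the 20-nucleotide form with C and A added, was singled out after its value was seen (2.32 ± 0.65, adjusted p = 0.0402). That sequence is also 1 substitution from the 22-nucleotide form, so its count cannot be told apart from a misread of that form. The same holds for the 20-nucleotide form with A or C alone added, against the 21-nucleotide form. The call for C was lost without any 1 of 5 libraries (adjusted p between 0.0509 and 0.146) and that for T without any 1 of 6 (between 0.0701 and 0.274) or with DESeq2 size factors (0.0694). The 23-nucleotide form that ends in an added A did not change (log2 -0.22 ± 0.38, adjusted p = 0.762). None of the 24 tested sequences with 1 substitution was called by edgeR in this comparison, with 3 at an unadjusted p under 0.05. None of the 10 annotated to the hairpin only was called either, with 4 at an unadjusted p under 0.05. The 22-nucleotide miR-151-5p differed by 0.78 ± 0.39 (adjusted p = 0.233), and by 1.67 with total counts (adjusted p = 0.0225). It was also called higher by edgeR with upper-quartile scaling (1.56, adjusted p = 0.0282), a stricter filter (1.26, 0.0299) and miRNA sequences alone (2.17, 0.000504).

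The balance of the arms differed between hairpins. The ratio of 5p to 3p counts of miR-151 was 74.8 and 161 in non-oxidized control RNA, 119 and 276 in non-oxidized methyltransferase RNA and 168 and 118 in oxidized methyltransferase RNA. The groups overlapped, and the 5p arm was the more abundant in all 6 libraries. That of miR-28a was 1.08 and 0.806, 0.827 and 0.350, and 0.116 and 0.291 in the same groups. Here the oxidized methyltransferase libraries were lower than every non-oxidized one. In the oxidized control libraries the 3p arms had 0 or 8 counts and no ratio is read. For miR-708 the table listed only the 5p arm, so it has no ratio.

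**Figure D5:**
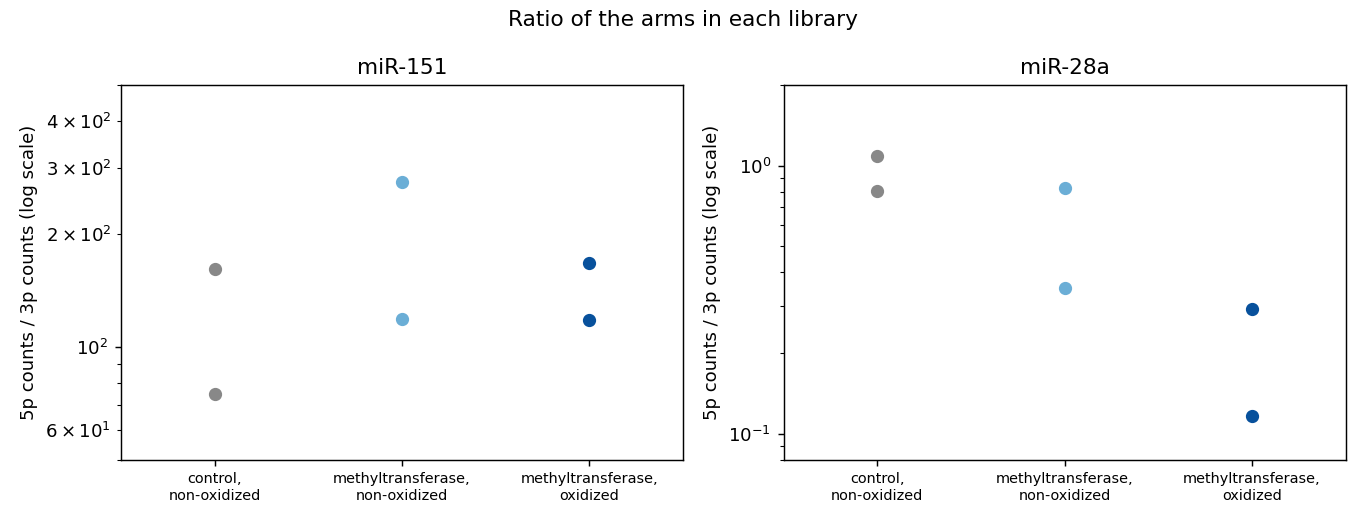
Ratio of 5p to 3p counts (log axes with different ranges) in each library of 3 groups, for miR-151 (left) and miR-28a (right), 1 point per library. The miR-151 groups overlap, and the oxidized methyltransferase points of miR-28a, at 0.116 and 0.291, are the lowest.

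limma compared these ratios over the 20 miRNAs with enough counts on both arms. On oxidation of methyltransferase RNA the miR-28a ratio fell by 1.54 ± 0.55 on the log2 scale (adjusted p = 0.0383), and of the 20 miRNAs 50% were called, 30% lower and 20% higher. The miR-151 ratio was not called (-0.36 ± 0.61, adjusted p = 0.590). The miR-28a call was lost without the first or the second non-oxidized methyltransferase library (-0.92, adjusted p = 0.274, and -2.16, adjusted p = 0.0748), or without the first oxidized methyltransferase library (-0.88, adjusted p = 0.256). With the hairpin-only sequences added to the arms, an alternative chosen after the data were seen, it was -1.27 (adjusted p = 0.0798). Between the non-oxidized groups, limma called neither hairpin (miR-151 0.71 ± 0.61, adjusted p = 0.443, and miR-28a -0.79 ± 0.55, adjusted p = 0.315) and 0% of the 20, with 5 of the 20 at an unadjusted p under 0.05.

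Each arm was set against 132 mature arms with a mean of at least 50 counts by the Euclidean distance between centred log2 profiles over the 8 libraries. miR-151-5p lay nearest to let-7a-5p (distance 0.407, against a median of 3.16 to all), then let-7f-5p (0.809) and let-7c-5p (1.04). miR-28a-5p lay nearest to miR-374b-5p (0.656, median 2.57) and miR-708-5p nearest to miR-183-3p (1.03, median 2.79). miR-28a-3p lay nearest to miR-184-3p (1.25, median 4.63) and miR-151-3p to miR-325-5p (1.35, median 3.56). The nearest neighbours of the 3p arms of miR-28a and miR-151 thus lay further off than those of miR-151-5p and miR-28a-5p. All arms but miR-151-5p had only 0 to 8 counts in each oxidized control library. There the distances depend on counting error and on the 0.5 added to each count, so they are not read further.

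The authors' deposited table called 13 of the 16 lower in oxidized control than in oxidized methyltransferase RNA and left 3 uncalled. For non-oxidized against oxidized methyltransferase RNA, the authors' deposited table called 4 of the 16 higher without oxidation and left 12 uncalled. Shares of all listed sequences in the authors' calls were not counted, so these counts do not set the family apart from other sequences.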

How the data were processed

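Small RNAs of 8 libraries (4 groups of 2) were analysed from 1 deposited table. It holds raw counts per distinct sequence, the deposited normalized signal (count divided by a size factor per library), deposited log2 (regularized-log) values, and the authors' fold changes, read as a score, with the authors' p-values, all per the file headers. Only the counts and the authors' calls were used. The aligner, genome build, trimming, use of molecular identifiers and counting tool are not given in the sources used here. The 12608 lines were merged by sequence to 11568. Totals are those of listed sequences, not library depths.

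edgeR 4.0.16 (quasi-likelihood test, TMM scaling, filterByExpr, all 8 libraries in 1 model of 4 groups, in R 4.3.3) tested 9851 sequences, with Benjamini-Hochberg adjustment over all of them and calls at an adjusted p under 0.05. limma 3.58.1 tested log2 ratios of arms and of neighbouring lengths in 6 libraries with a pseudocount of 0.5 and a mean of at least 10 counts in each group. Alternatives included DESeq2 1.42.0, limma-voom, other scalings, filters and pseudocounts, and leaving out each library. Coordinates are exact matches to GRCm38 with GENCODE M21. Fold bounds put sequences with at most 3 counts in each oxidized control library at 3 counts per library. Sequences with a mean of at least 10 counts are given by library, and the others by range or count. The members, lists and the longer to shorter comparison were chosen with earlier results of these data known.

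The scripts were tested on simulated data with known changes.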

Additional observations from a re-analysis of the deposited data

Results flagged for a closer look

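Oxidation acted differently under the 2 plasmids (edgeR interaction, adjusted p under 0.05) for 12 of the family sequences annotated to a mature arm and for each of the 3 most abundant ones annotated to the hairpin only. For sequences with counts in oxidized control RNA the difference is on the log2 scale: 10.01 for the 21-nucleotide, 10.74 for the 22-nucleotide, 8.25 for the 23-nucleotide and 4.68 for the 19-nucleotide miR-151-5p. For sequences at 0 in both oxidized control libraries it is a lower bound. Retention on oxidation was at least 82.9-fold higher with the methyltransferase for the 22-nucleotide miR-28a-3p, 40.2-fold for miR-151-3p, 24.6-fold for the 21-nucleotide and 11.0-fold for the 22-nucleotide miR-28a-5p, and 14.3-fold for miR-708-5p. For forms of miR-151-5p it was at least 24.6-fold at 20 nucleotides, 9.19-fold for the form without its first base, 12.3-fold for that with 1 more 5′ base, 6.49-fold for T1C, 3.90-fold for T1G and 16.9-fold for the 20-nucleotide form without a genomic match. All these values use edgeR's trimmed-mean scaling. With total counts the log2 differences of the 21- and 22-nucleotide miR-151-5p were 6.49 and 7.23, and the bounds were about an order of magnitude lower: 7.19-fold for the 22-nucleotide miR-28a-3p, 3.40-fold for miR-151-3p, 2.07-fold for the 21-nucleotide miR-28a-5p and the 20-nucleotide miR-151-5p, 1.48-fold for the form without a genomic match, 1.23-fold for miR-708-5p and 1.03-fold for that with 1 more 5′ base. With total counts the bounds of the 23- and 19-nucleotide miR-151-5p were 13.5-fold and 1.09-fold. For the 22-nucleotide miR-28a-5p (0.925), the form without its first base (0.805), T1C (0.539) and T1G (0.329) the bound was then below 1, so on that scale it shows no difference. The 21-nucleotide miR-28a-3p and the 17-nucleotide miR-151-5p did not pass. The listing rule and the filter admit sequences by their counts in oxidized methyltransferase RNA, so these values are a description only.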

How the results depend on the processing

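Under the alternatives, 121 counts of called sequences or ratios stayed within 1.5 times the value reported and 21 did not, and 36 values of single sequences or ratios changed sign. Calls of single sequences or ratios were lost in 41 cases and gained in 13, and those that bear on a named call stand beside it. Called family sequences between oxidized methyltransferase and oxidized control RNA were 8 of 8 tested in a fit of those libraries alone, 8 of 15 (7 higher, 1 lower) in a fit of miRNA sequences alone and 5 (arms) when summed by arm. Summed by arm, 2 were called for oxidation with the methyltransferase and 5 each for oxidation in control RNA and for the interaction, and fewer features were tested. With miRNA sequences alone the last 2 counts were 8 (7 lower, 1 higher) and 5 (4 higher, 1 lower). No share of all sequences stands beside these counts, so they do not set the family apart. The 5p to 3p call of 1 hairpin ranged from 0 to 1 when a library was left out and was 0 with hairpin-only sequences in the arms. The 1 non-oxidized length ratio called went to 0 with no filter, without the variance trend and with the replicate block, and ranged from 0 to 3 when a library was left out.

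Signs that turned were of uncalled differences, apart from the 21-nucleotide miR-28a-3p between the oxidized groups, -0.42 with total counts and -1.48 with miRNA sequences alone. For oxidation with the methyltransferase, total counts, upper quartile and miRNA sequences alone gave 0.51, 0.42 and 1.02 for the 21-nucleotide miR-151-5p, 0.42, 0.30 and 0.90 for the 22-nucleotide miR-28a-3p, 0.54, 0.48 and 1.10 for miR-151-3p, 0.18, 0.061 and 0.67 for miR-151-5p without its first base, and 0.36, 0.27 and 0.88 for that with 1 more 5′ base. The 23-nucleotide form with an added A gave 0.66 and 0.56 with total counts and upper quartile, and 0.0048 in a fit of the compared libraries alone. The stricter filter gave 0.11, 0.15 and 0.25 for the 21-nucleotide miR-151-5p, miR-151-3p and the added-A form. miRNA sequences alone gave 0.31 for the 21-nucleotide miR-28a-5p, 0.0097 for the 21-nucleotide miR-28a-3p and 0.30 for the 23-nucleotide miR-151-5p. Between the non-oxidized groups they gave 0.061 for the 21-nucleotide miR-151-5p, and DESeq2's size factors or Wald test gave -0.029 for the 22-nucleotide form. Leaving out a library gave -0.32 to 1.06 for T1C, -0.73 to 0.24 for miR-151-3p, -0.97 to 0.24 for the miR-151 arm ratio on oxidation and -0.18 to 0.35 for the miR-28a-3p length ratio between the non-oxidized groups. With hairpin-only sequences in the arms the miR-151 ratio was 0.038. The cause was not tested.

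Replicate differences correlated by 0.56 between the 2 non-oxidized groups, by 0.14 between non-oxidized control and oxidized methyltransferase RNA and by -0.010 to 0.044 between the other groups. The labels do not say what a shared number stands for, so the samples were not treated as paired, and whether the non-oxidized libraries share a source was not tested. With the block, the non-oxidized ratio of 22- to 21-nucleotide miR-151-5p had an adjusted p of 0.0524. The replicate block gave 13, 0, 4, 13 and 12 called sequences in the 5 comparisons, as without it. Low counts in oxidized methyltransferase RNA limit miR-28a-5p, miR-708-5p and the first-base forms.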
